A study of Mus musculus with 12 samples.

Results

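CCR4-NOT is the main cytoplasmic deadenylase of mammalian cells, a multi-subunit complex that shortens the poly(A) tail of mRNAs. Its subunit genes were followed through ORFtag screens in mouse embryonic stem (mES) cells. The 10 genes are Cnot1, Cnot2, Cnot3, Cnot6, Cnot6l, Cnot7, Cnot8, Cnot9, Cnot10 and Cnot11, taken by name from the 20409 genes of the deposited gene tables, where all 10 were found.

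As background, Cnot1 is the scaffold on which the other subunits assemble. Cnot2 and Cnot3 form the NOT module at its C-terminal end, and Cnot9 binds its middle part and offers a surface that RNA-binding proteins and GW182 proteins of the microRNA pathway hold on to. Cnot7 and Cnot8 are alternative DEDD-family nucleases, Cnot6 and Cnot6l are alternative nucleases of the exonuclease-endonuclease-phosphatase family, and Cnot10 and Cnot11 form a module at the N-terminal end of the scaffold. Shortening of the tail by the complex is followed by decapping and decay of the mRNA, and parts of the complex can also hold back translation, so a subunit tethered to an mRNA is a classical way to lower its expression.

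In ORFtag, cells are transduced with a retroviral cassette that holds a PGK promoter, a resistance gene and a tag followed by a splice donor. Its transcript is spliced to the next acceptor exon downstream, so that the endogenous gene is expressed as a fusion to the tag. All 12 libraries came from diploid mES cells derived from the haploid line AN3-12, transduced with the cassette in 3 reading frames mixed in equal parts and selected with G418. In the PTGR screen (post-transcriptional gene regulators) the tag was the λN peptide, which binds boxB sites in the 3′ UTR of a GFP reporter mRNA driven by a PGK promoter, in 1 clonal line that also carried CreERT2. The PTGR sorted cells had passed repeated sorts for low GFP, then 4-hydroxytamoxifen to remove the boxB sites, and a last sort for GFP that had come back. In the activator screen the tag was TetR, the reporter had TetO sites before a weak MYLPF promoter, and GFP-positive cells were sorted. In the repressor screen the tag was TetR, the TetO reporter was constitutively active, and GFP-negative cells were sorted. Both TetR reporter lines were clonal as well, and each screen had 2 sorted and 2 unsorted libraries, the latter taken after selection and before any sort. The tagged cassette itself is therefore shared by sorted and unsorted cells, and each screen rests on a single reporter clone.

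An insertion is a unique genomic position at most 200 kb from its assigned exon, in the orientation that can make a fusion (sense) unless stated otherwise. Sorted libraries held 14705 to 60980 insertions and unsorted libraries 54088 to 233799, and levels below are insertions per 10000 of the library. A position was counted once however many cells carried it. Intervals are 95% and reflect counting error alone. Libraries shared positions, and 19.5% of the positions of PTGR sorted replicate 1 were also present in PTGR unsorted replicate 1 and 0.397% in PTGR unsorted replicate 2, while 6.98% of those of PTGR sorted replicate 2 were in PTGR unsorted replicate 2 and 1.93% in PTGR unsorted replicate 1. With unsorted libraries of the other screens, PTGR sorted libraries shared 1.21 to 1.60% of their positions. PTGR sorted replicate 1 shared 0.648% of its positions with replicate 2, whereas the repressor sorted replicates shared 18.8% and 27.5% with each other, more than with either repressor unsorted library (5.47 to 10.0%). Activator sorted replicate 2 shared 19.2% with activator unsorted replicate 2.

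The part of each gene that a fusion can carry is set by the acceptor it is spliced to. Acceptors here are those of the assigned exon, the closest downstream of an insertion, and splicing itself was not read. Those assigned most PTGR sorted insertions are shown for the 5 subunits with the highest enrichment supported by at least 10 sorted insertions. Each sequence runs 5′ to 3′ on the strand of the gene, with the 20 intron bases in lower case and the first 10 exon bases in capitals, read from the GRCm38 genome.
Cnot9 exon 2: tttcttgttttcccctaaagCCTGTGCCTA
Cnot3 exon 2: atcccaattgttcccagcagCGGCCATTTT
Cnot2 exon 2: tttggataattccactctagAGGGAGAACT
Cnot2 exon 5: aatcaattttttttttttagGATTTCTGAA
Cnot8 exon 2: caaactgtctttatatctagATTGGATCCA
Cnot1 exon 2: ggaattttgtatttatacagGTGCCATGTT
Cnot1 exon 3: ataacatttttgtgtttcagATTGTGAATC
The Cnot9 acceptor (chr1:74517050-74517079, plus strand) lies after codon 8, in frame, and leaves 97.3% of the coding sequence downstream. The acceptors of Cnot3 exon 2 (chr7:3650781-3650810, plus), Cnot2 exon 2 (chr10:116549166-116549195, minus), Cnot8 exon 2 (chr11:58109536-58109565, plus) and Cnot1 exon 2 (chr8:95788895-95788924, minus) lie in the 5′ UTR, 50, 95, 94 and 173 bases before the start codon, and leave the whole coding sequence downstream. Cnot1 exon 3 (chr8:95775377-95775406, minus) begins after 34 codons of 2369. The Cnot2 exon 5 window (chr10:116510448-116510477, minus) belongs to an alternative exon that the principal transcript of 540 codons does not use. It begins after 79 codons of a 109-codon transcript.

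In the PTGR screen, 3 subunit genes were hits: Cnot9, Cnot3 and Cnot2. Their odds of insertion in the sorted cells were 19.3, 14.7 and 12.6 times those in the background, which is the sum of all 6 unsorted libraries. A gene was a hit where its log2 odds ratio was 1 or more and a one-sided Fisher's exact test gave an adjusted p below 0.001. Of the 10 genes, 9 had the 3 sorted insertions needed for a test, and the 3 hits among them stand beside 0.666% of all 9303 genes tested. The median log2 odds ratio was 1.10 over these 9 genes and 0.14 over all genes tested. All 10 genes together took 33.1 and 30.2 insertions per 10000 in the PTGR sorted libraries and 6.22 to 10.1 in the 6 unsorted libraries. Most of this sum came from 2 genes, as Cnot2 held 154 and Cnot9 106 of the 379 sorted insertions. It is therefore no measure of the complex as a whole.

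**Figure D1:**
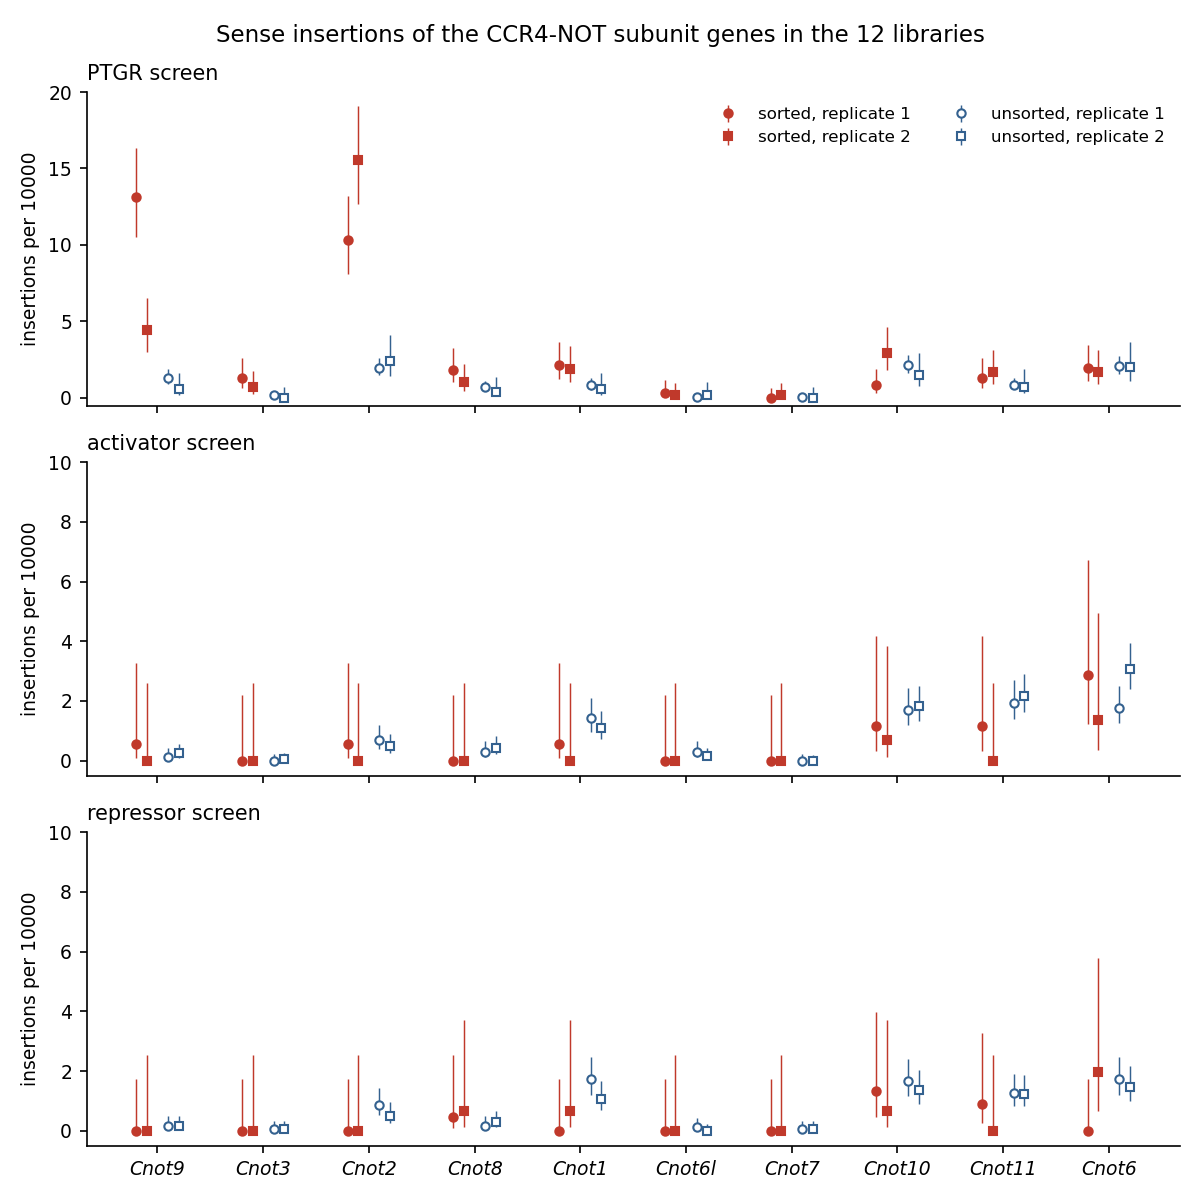
Sense insertions per 10000 (y axis) at each subunit gene (x axis) in the sorted (red, filled) and unsorted (blue, open) libraries of the 3 screens, with circles for replicate 1, squares for replicate 2 and bars for 95% Wilson intervals. In the PTGR screen Cnot9 stood at 13.1 and 4.44 and Cnot2 at 10.3 and 15.5 in sorted cells, above every unsorted library.

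Cnot9 (chr1:74506058-74530842, plus strand) had 80 and 26 sorted insertions, or 13.1 and 4.44 per 10000. In the unsorted libraries it ranged from 0.114 to 1.33 with a median of 0.206 (n = 6). Both sorted values lay above every unsorted one, and the sorted replicates differed from each other by more than their counting intervals. The share of all genes with such a separation was not counted, here or for the genes below. Of the 26 positions in replicate 2, 6 (23.1%) were also in replicate 1, beside 0.675% over the whole library. PTGR unsorted replicate 1 held 3 of the 26 (11.5%), beside 1.93%. The 2 sorted counts of Cnot9 are therefore not fully separate, in the tests below as well. With 106 sorted against 47 background insertions the log2 odds ratio was 4.27 ± 0.25 (SE), and the adjusted p 3.86e-64 by Fisher's exact test. Single libraries moved this value: it was 3.27 without PTGR sorted replicate 1 and 5.45 without PTGR unsorted replicate 1, and Cnot9 was a hit in both cases.

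The NOT module followed. Cnot2 (chr10:116485161-116581511, minus strand) had 63 and 91 sorted insertions, or 10.3 and 15.5 per 10000, and 0.482 to 2.40 in the unsorted libraries (median 0.772, n = 6). Both sorted values were higher than all unsorted values. Its log2 odds ratio was 3.65 ± 0.18 (SE; 154 against 105 insertions), and its adjusted p 4.95e-79 by Fisher's exact test. Cnot3 (chr7:3645268-3661109, plus strand), its partner in the module, was reached by the cassette far less often. It had 8 and 4 sorted insertions, or 1.31 and 0.683 per 10000, and 0 to 0.171 in the unsorted libraries (median 0.0523, n = 6). The groups did not overlap for Cnot3 either, but the counts were small. PTGR unsorted replicate 2 held 0 insertions at Cnot3, and its interval reached above the 0.683 of PTGR sorted replicate 2. Separation from that unsorted library was therefore not resolved. The log2 odds ratio of Cnot3 was 3.87 ± 0.69 (SE; 12 against 7 insertions; adjusted p 8.33e-06 by Fisher's exact test), with an interval from 2.41 to 5.46. Without PTGR unsorted replicate 1 it was 4.72, and without PTGR sorted replicate 1 it was 3.32 and Cnot3 was no hit (adjusted p 0.0774 by Fisher's exact test). The intervals of Cnot9 (3.76 to 4.80), Cnot3 and Cnot2 (3.28 to 4.02) overlapped, so their order was not resolved at this depth.

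The scaffold gene Cnot1 (chr8:95719451-95807464, minus strand) was no hit over all its insertions. It had 13 and 11 sorted insertions, or 2.13 and 1.88 per 10000, and 0.555 to 1.72 in the unsorted libraries (median 1.09, n = 6). The sorted values lay just above the highest unsorted library, repressor unsorted replicate 1. The log2 odds ratio was 0.79 ± 0.32 (SE; 24 against 119 insertions; adjusted p 0.291 by Fisher's exact test).

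**Figure D2:**
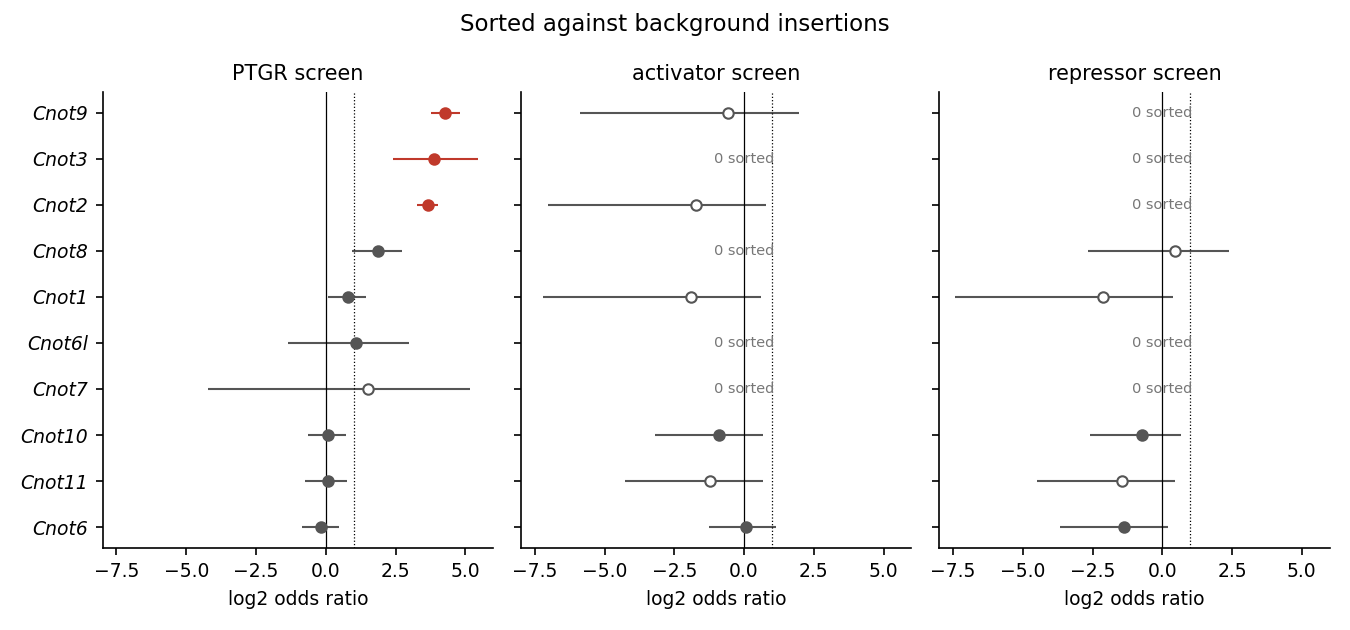
Log2 odds ratio of sorted against background insertions (x axis) for each subunit gene (y axis) in the 3 screens, with exact 95% intervals. Red points are hits, filled grey points were tested and are no hits, open points had fewer than 3 sorted insertions, and the dotted line is the threshold of 1. Cnot9, Cnot3 and Cnot2 were hits in the PTGR screen and no subunit gene was a hit in the activator or repressor screen.

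Of the 4 nuclease genes, Cnot8 (chr11:58104153-58118594, plus strand) came closest to the threshold. It had 11 and 6 sorted insertions, or 1.80 and 1.02 per 10000, and 0.172 to 0.684 in the unsorted libraries (median 0.327, n = 6). Both sorted values exceeded all unsorted ones, but the intervals of both PTGR unsorted libraries reached above the 1.02 of PTGR sorted replicate 2. The log2 odds ratio was 1.86 ± 0.42 (SE; 17 against 40 insertions), and its adjusted p of 0.00599 by Fisher's exact test missed the threshold of 0.001. Without PTGR unsorted replicate 1 Cnot8 became a hit, with 2.22 as its log2 odds ratio (adjusted p 9.35e-04 by Fisher's exact test). Cnot7 (chr8:40492540-40515847, minus strand), its alternative in the complex, had 1 sorted insertion, in replicate 2, and 3 background insertions. Its log2 odds ratio of 1.51 had an interval from -4.20 to 5.15 and was not tested, so at this depth nothing can be said of Cnot7.

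Cnot6 (chr11:49671503-49712723, minus strand) had 12 and 10 sorted insertions, or 1.97 and 1.71 per 10000, inside the range of 1.47 to 3.08 of the unsorted libraries (median 1.9, n = 6). The groups overlapped, and the log2 odds ratio was -0.16 ± 0.32 (SE; 22 against 210 insertions; adjusted p 1 by Fisher's exact test). This value depended on the distance allowed between an insertion and its exon, as described with the insertion positions. Its paralog Cnot6l (chr5:96070333-96164171, minus strand) had 2 and 1 sorted insertions and 12 background insertions. The log2 odds ratio of Cnot6l was 1.10, with an interval from -1.37 to 2.99 (adjusted p 0.709 by Fisher's exact test).

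For the N-terminal module the intervals of both genes included 0. Cnot10 (chr9:114585878-114640184, minus strand) had 5 and 17 sorted insertions, or 0.820 and 2.90 per 10000, on either side of the unsorted range of 1.36 to 2.14 (median 1.69, n = 6). Its log2 odds ratio was 0.07 ± 0.33 (SE; interval -0.64 to 0.71; adjusted p 0.903 by Fisher's exact test). Cnot11 (chr1:39534992-39546889, plus strand) had 8 and 10 sorted insertions, or 1.31 and 1.71 per 10000, within the unsorted range of 0.740 to 2.17 (median 1.25, n = 6). Its log2 odds ratio was 0.07 ± 0.36 (SE; interval -0.73 to 0.78; adjusted p 0.913 by Fisher's exact test). The upper bounds of both genes lay below the lower bounds of the 3 hits.

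Fisher's exact test on summed libraries does not see the spread between replicates, so the 2 sorted and 2 unsorted PTGR libraries were also compared with edgeR's quasi-likelihood test. At an adjusted p below 0.05 and a log2 fold change of at least 1, 0.342% of the 8491 genes tested were higher in sorted cells, and 2 of the subunit genes were among them. The same 2 were called with the replicate number as a block (0.495% of genes) and without a filter on low counts (0.199% of genes). Cnot2 had a log2 fold change of 2.66 (adjusted p 9.18e-04, edgeR) and Cnot9 one of 3.02 (adjusted p 0.0138, edgeR), the latter with the larger spread between its sorted replicates. Cnot3, with 12 sorted insertions, had a log2 fold change of 2.84 and an adjusted p of 0.902 by edgeR. With DESeq2, which also called 0.342% of genes, Cnot2 passed (adjusted p 6.38e-08), Cnot9 did not (adjusted p 0.0946) and Cnot3 was given no adjusted p.

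The unsorted PTGR cells already held more insertions at Cnot9, Cnot2, Cnot3 and Cnot8 than the unsorted cells of the other screens, a difference given here as values without a test. Cnot9 stood at 1.18 per 10000 in the summed PTGR unsorted libraries and at 0.177 in the other 4 unsorted libraries, a ratio of 6.67. For Cnot2 the values were 2.05 and 0.626, a ratio of 3.27, and for Cnot8, with 18 and 22 insertions, the ratio was 2.09. The ratio of Cnot3 was 3.40, from 4 against 3 insertions. It was 1.22 for Cnot10, 0.997 for Cnot6, 0.578 for Cnot1 and 0.498 for Cnot11. Part of these positions were the same as in sorted cells, namely 14 of 31 for Cnot9 and 21 of 46 for Cnot2 in PTGR unsorted replicate 1, and 2 of 4 for Cnot3. In PTGR unsorted replicate 2 this held for 1 of 3 positions at Cnot9 and 5 of 13 at Cnot2. In an alternative chosen after seeing the data, positions found in the sorted cells of a screen were left out of its unsorted libraries. The background then fell to 32 insertions at Cnot9, 79 at Cnot2 and 5 at Cnot3. Of these, 19, 33 and 2 were from the PTGR unsorted libraries. This can only lower the background, so it is no separate evidence for the enrichment. Why the positions were shared was not tested.

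The choice of background therefore set the size of the enrichment. Against the PTGR unsorted libraries alone, the log2 odds ratio was 2.91 for Cnot9, 2.65 for Cnot2 and 2.85 for Cnot3, and Cnot3 was no longer a hit (adjusted p 0.0362 by Fisher's exact test). Against the 4 unsorted libraries of the other screens it was 5.65 for Cnot9, 4.36 for Cnot2 and 4.62 for Cnot3. Cnot8 moved from 1.19 (adjusted p 0.482) against the PTGR background to 2.25 (adjusted p 8.80e-04) against the other screens, both by Fisher's exact test, and was a hit only in the latter.

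**Figure D3:**
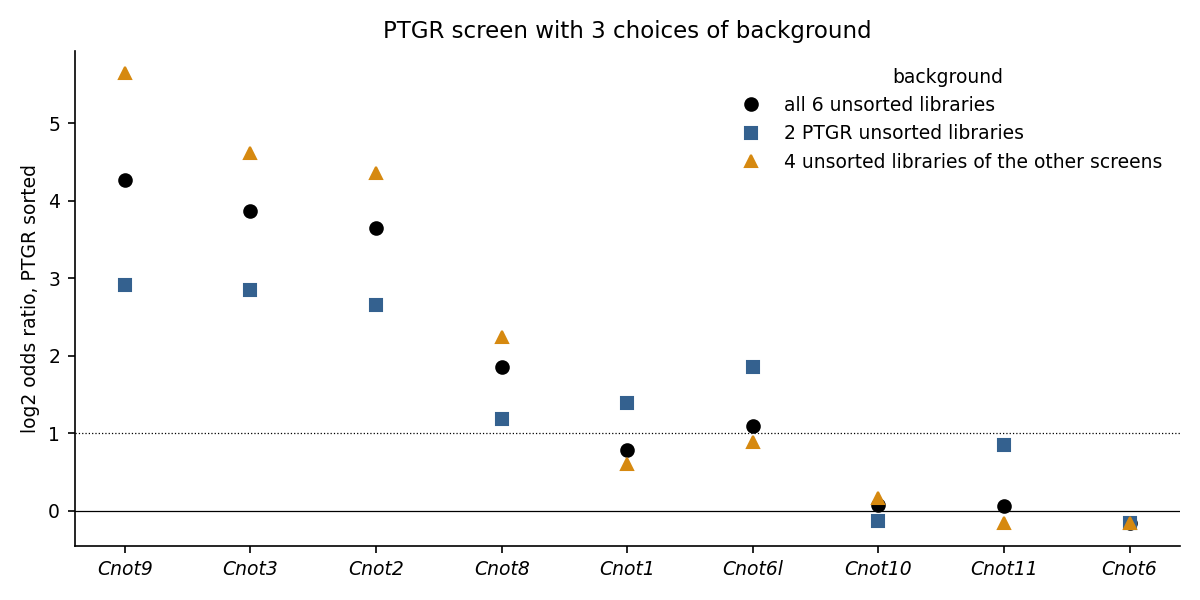
Log2 odds ratio of PTGR sorted insertions (y axis) for the 9 subunit genes tested (x axis), against all 6 unsorted libraries (circles), the 2 PTGR unsorted libraries (squares) and the 4 unsorted libraries of the other screens (triangles). The dotted line is the threshold of 1. Cnot9 ranged from 2.91 to 5.65 with the background used.

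A cassette inserted against the direction of the gene cannot make a fusion, and these reversed insertions were not used above. The sense shares hold the sense counts already given, so a high share at a hit is no separate evidence, and only the reversed counts are new. Of all insertions assigned to Cnot9 in either orientation, 99.1% (106 of 107; interval 94.9 to 99.8%) were sense in PTGR sorted cells and 46.4% (13 of 28; interval 29.5 to 64.2%) in the unsorted cells of the other screens. For Cnot2 the sense share was 90.6% (154 of 170; interval 85.3 to 94.1%) against 54.8% (46 of 84; interval 44.1 to 65.0%). The intervals of these shares did not overlap for either gene, and the shares were high in both PTGR sorted replicates, at 100% and 96.3% for Cnot9 and 92.6% and 89.2% for Cnot2. The PTGR unsorted cells were in between, at 77.3% (interval 63.0 to 87.2%) for Cnot9 and 74.7% (interval 64.1 to 83.0%) for Cnot2.

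Cnot3 had 12 of 13 insertions in sense in PTGR sorted cells, 4 of 4 in PTGR unsorted cells and 3 of 11 in the unsorted cells of the other screens. The sense share of Cnot8 was 73.9% (interval 53.5 to 87.5%) against 38.6% (interval 27.1 to 51.6%), with 52.9% in PTGR unsorted cells. For Cnot1 it was 77.4% (interval 60.2 to 88.6%) against 56.7% (interval 49.2 to 63.9%), with overlapping intervals, and 47.8% in PTGR unsorted cells. Cnot10 (50%) and Cnot11 (54.5%) stayed near an even split in sorted cells. In the test of reversed insertions no subunit gene was a hit in the PTGR screen, beside 0.500% of the 9204 genes tested. The highest value was that of Cnot2, whose log2 odds ratio was 1.25 ± 0.41 (SE; 16 against 58 insertions; adjusted p 0.139 by Fisher's exact test).

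**Figure D4:**
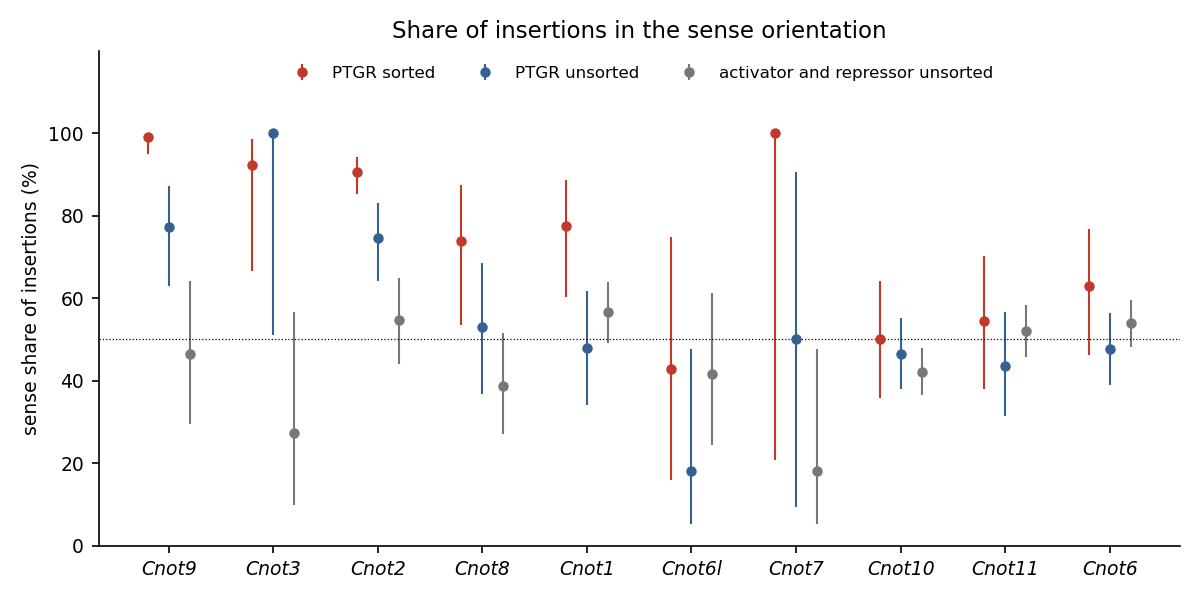
Share of insertions in the sense orientation (y axis, percent) for each subunit gene (x axis) in PTGR sorted cells (red), PTGR unsorted cells (blue) and the 4 unsorted libraries of the other screens (grey), with 95% Wilson intervals and a dotted line at an even split. Cnot9 and Cnot2 reached 99.1% and 90.6% in PTGR sorted cells.

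The insertions at Cnot9 gathered in a narrow stretch around its start, mostly in the first intron, with 10 of 106 upstream of the gene. All 106 sorted insertions were assigned to exon 2, at a median of 9844.5 bp before it, with quartiles at 9475.75 and 10238 bp, and 93.4% (interval 87.0 to 96.8%) lay within 5 kb of the annotated start of the gene. The 34 PTGR unsorted insertions were placed alike, with a median of 9827 bp. This stretch is also covered by the annotated gene Usp37 on the opposite strand, and the strand of the insertion decided the assignment. When positions within 10 bp were merged, 70 sorted and 40 background insertions were left at Cnot9, and the log2 odds ratio was 3.91. At Cnot2 the merging left 125 of 154 sorted and 100 of 105 background insertions, and Cnot2 was still a hit.

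At Cnot2, 78.6% of sorted insertions (121 of 154) were assigned to exon 2, at 73.0% in replicate 1 and 82.4% in replicate 2. The other 33 were assigned to later exons (21.4%; interval 15.7 to 28.6%), against 11 of 105 in the background (10.5%; interval 5.95 to 17.8%), with overlapping intervals. The background was mixed, as exon 2 took 84.7% (50 of 59) in PTGR unsorted cells and 95.7% (44 of 46) in the unsorted cells of the other screens. The acceptor of exon 5 shown above took 14 of the 33 sorted insertions and that of exon 8 took 7, the latter leaving 52.2% of the coding sequence of the principal transcript downstream. Few sorted insertions lay upstream of the gene, 1.95% (interval 0.665 to 5.57%), against 22.9% (interval 15.9 to 31.8%) in the background. The share differed within the background, at 10.2% (interval 4.74 to 20.5%) in PTGR unsorted cells, which overlaps the interval of the sorted cells, and 39.1% (interval 26.4 to 53.5%) in the unsorted cells of the other screens.

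Cnot3 had 6 of its 12 sorted insertions at exon 2 and 1 or 2 at each of exons 3, 4, 6, 10 and 11. The most distal of these, at exon 11, leaves 60.3% of the coding sequence downstream. The sorted insertions lay within 4736 bp of the assigned exon, and none lay upstream of the gene. Of the 17 sorted insertions at Cnot8, 15 were assigned to exon 2 and 82.4% lay within 5 kb of the gene start, beside 67.5% in the background, with overlapping intervals (59.0 to 93.8% and 52.0 to 79.9%).

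The scaffold gene Cnot1, which was no hit over all its insertions, had a shifted pattern of insertions. In sorted cells, 41.7% of its sorted insertions (10 of 24; interval 24.5 to 61.2%) were assigned to exon 2, 5 of 13 in replicate 1 and 5 of 11 in replicate 2, against 91.6% (109 of 119; interval 85.2 to 95.4%) in the background. The other 14 were assigned to exons 3, 4, 11, 15 and 20, and exon 3 alone took 7 of them, where the background had 2. Insertions upstream of the gene made up 37.5% in sorted cells (interval 21.2 to 57.3%) and 82.4% in the background (interval 74.5 to 88.2%). The median distance to the assigned exon was 10260.5 bp in sorted cells and 27983 bp in the background.

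Cnot6 also had more of its insertions near the gene in sorted cells. Exon use and distance were not counted over all genes. A shift of the sorted libraries in general is therefore not set apart from one at Cnot1 or Cnot6. In the background, 124 of its 210 insertions lay inside the neighbouring gene Gfpt2, which is transcribed from the opposite strand, and the median distance to exon 2 was 102940 bp. In PTGR sorted cells 3 of 22 lay in Gfpt2, the median distance was 14528.5 bp, and 50.0% (interval 30.7 to 69.3%) lay within 5 kb of the start of Cnot6, against 4.29% (interval 2.27 to 7.94%) in the background. With a maximum distance of 50 kb, 14 sorted and 37 background insertions were left. Of the latter, 17 were from the PTGR unsorted libraries and 20 from the other 4. This distance was not run against the PTGR unsorted libraries alone. The log2 odds ratio of Cnot6 was then 1.68 (adjusted p 0.0429 by Fisher's exact test), above 0 where that at 200 kb was below 0, and still no hit. At Cnot10, exons after exon 2 took 31.8% of sorted and 25.7% of background insertions, and at Cnot11 exon 2 took 17 of 18 sorted insertions.

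**Figure D5:**
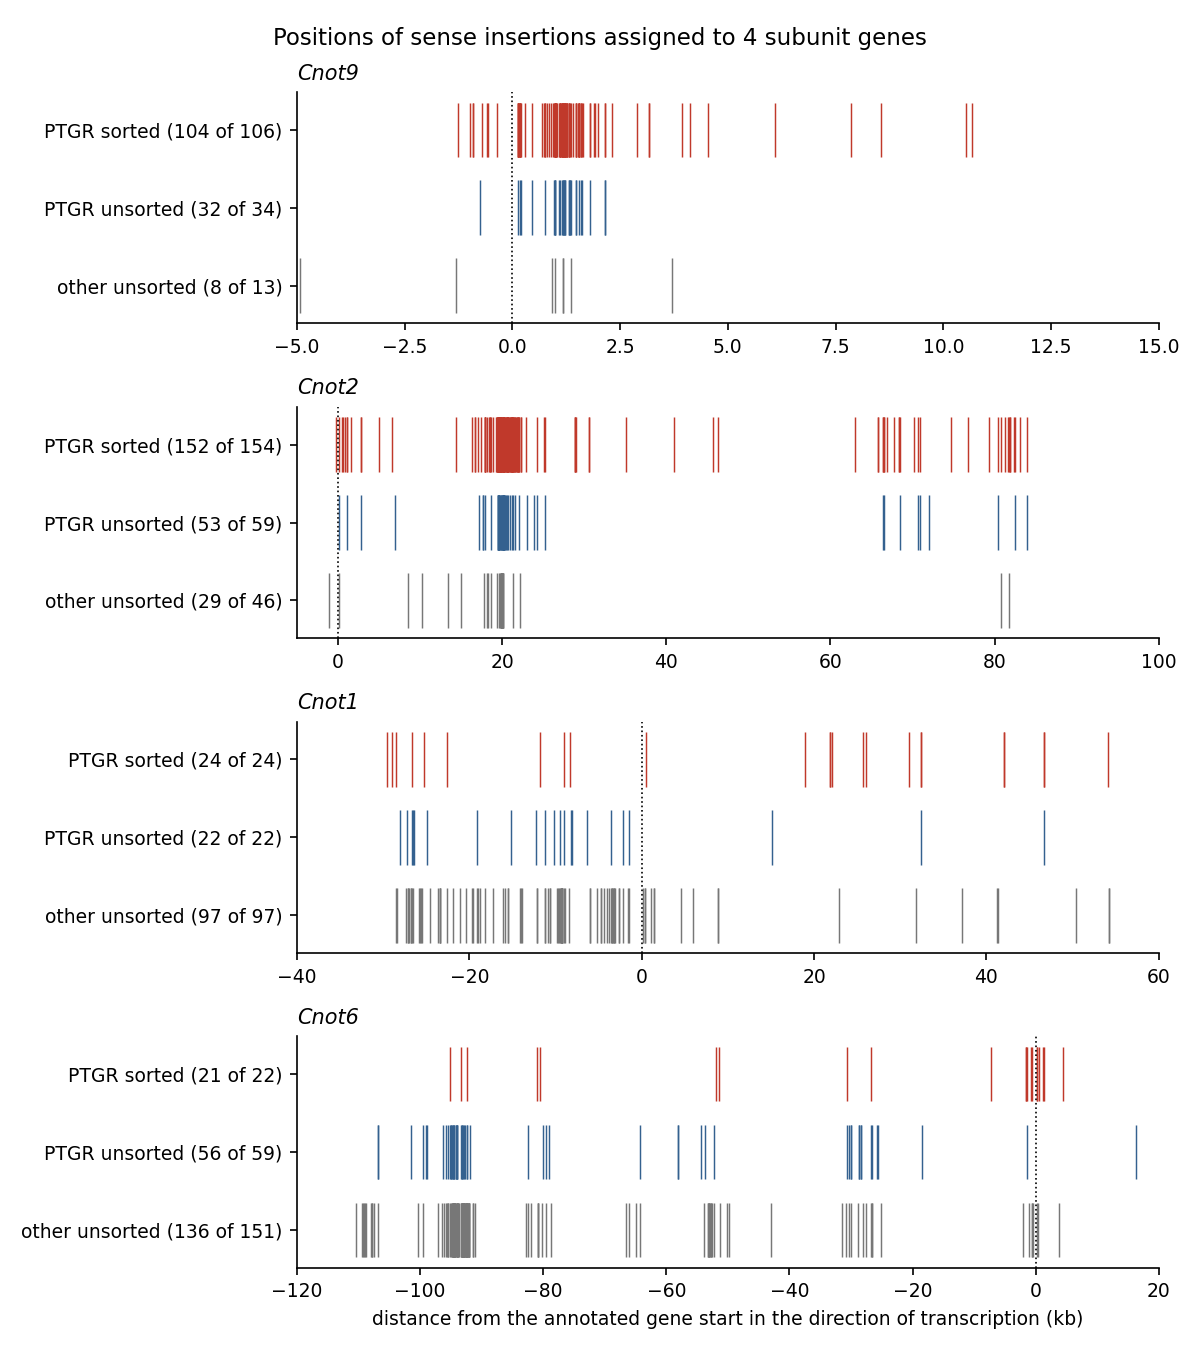
Positions of sense insertions (1 line each) at Cnot9, Cnot2, Cnot1 and Cnot6 by distance from the annotated gene start in the direction of transcription (x axis, kb; the dotted line is the start), in PTGR sorted (red), PTGR unsorted (blue) and the other unsorted libraries (grey). The labels give how many of all insertions fall in the stretch drawn. Sorted insertions at Cnot9 crowd within 5 kb of the start, and at Cnot6 few sorted insertions lie in the distant cluster that holds most of the background.

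In the screens with the TetR tag no subunit gene was a hit. Activator sorted cells held 15 insertions at the 10 genes, 12 in replicate 1 and 3 in replicate 2, and repressor sorted cells held 12, with 6 in each replicate. Only Cnot6 and Cnot10 had enough of them for a test, beside 4.64% of 2842 tested genes called in the activator screen and 8.18% of 2346 in the repressor screen. In the activator screen Cnot6 had 5 and 2 sorted insertions, at a log2 odds ratio of 0.09 ± 0.55 (SE), and Cnot10 had 2 and 1, with one of -0.91 ± 0.84. In the repressor screen Cnot6 had 0 and 3, with -1.36 ± 0.84, and Cnot10 had 3 and 1, with -0.71 ± 0.73. All 4 adjusted p were 1 or rounded to 1.00 by Fisher's exact test. The replicate-aware tests, which in the repressor screen take sorted libraries with many shared positions as separate replicates, called none of the 10 genes either, with edgeR without and with the replicate block, DESeq2 and edgeR without a filter on low counts in turn. They called 1.54%, 1.25%, 1.69% and 0.683% of all genes in the activator screen and 2.58%, 2.32%, 2.93% and 0.450% in the repressor screen. At an unadjusted p below 0.05 none of them had a subunit gene higher in sorted cells.

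The PTGR hits had at most 1 insertion in these sorted cells. Cnot9 and Cnot2 each had 1, in activator sorted replicate 1, and neither had any in the repressor sorted libraries, where 0 insertions allow up to 0.801 per 10000. Cnot3 had 0 in both screens, which allows up to 0.935 per 10000 in the activator and 0.801 in the repressor sorted cells and lies above its background level of 0.0685 per 10000. The limits lie between the 2 PTGR sorted values of Cnot3, 1.31 and 0.683 per 10000. For Cnot3 neither a depletion nor an enrichment up to these limits was therefore detectable in these screens at this depth. The upper bounds of the log2 odds ratio were 1.99 for Cnot9 and 0.79 for Cnot2 in the activator screen and 1.16 and -0.04 in the repressor screen. The bound of -0.04 shows no depletion of Cnot2, as the summed background includes the PTGR unsorted level of 2.05 per 10000. The repressor unsorted level of Cnot2 was 0.683 per 10000, below the limit of 0.801. Of reversed insertions, 2 subunit genes could be tested in the activator screen and were no hits, beside 3.14% of all genes tested. In the repressor screen, where 5.61% of tested genes were called, 0 subunit genes had enough reversed insertions for a test.

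With edgeR over all 12 libraries, the log2 fold change on sorting in the PTGR screen was tested against the mean of the other screens. The difference is signed, so a fall in the other screens adds to it. At an adjusted p below 0.05, 0.740% of 9732 genes had a higher log2 fold change in the PTGR screen. Cnot2 (adjusted p 2.59e-04) and Cnot1 (adjusted p 0.0288) passed, while Cnot9 (adjusted p 0.145) and Cnot11 (adjusted p 0.157) did not, all by edgeR. Cnot3, Cnot6l and Cnot7 had fewer than 20 insertions over all libraries and were not tested.

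Proteins that work with the complex were counted from 3 lists. Among 8 regulatory and weakly bound partners, such as the Tob and Btg proteins, 5 were tested in the PTGR screen (median log2 odds ratio -0.44) and 0 were hits. Tob1, an antiproliferative adaptor of the deadenylases, had the most sorted insertions of this list, 6 and 17, with 274 in the background, and its log2 odds ratio was -0.48 ± 0.31 (SE; adjusted p 1 by Fisher's exact test). Among 9 other deadenylases 8 were tested (median 0.25), and Pan3, the regulatory subunit of the PAN2-PAN3 deadenylase, was the 1 hit. Pan3 had 11 insertions in each sorted library and 40 in the background, and its log2 odds ratio was 2.23 ± 0.38 (SE; adjusted p 2.58e-05 by Fisher's exact test).

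Of 20 proteins known to recruit the complex and their partners, 18 were in the gene tables, 14 were tested (median 1.38) and 4 were hits in the PTGR screen. The list medians cover only genes with at least 3 sorted insertions, so genes low in sorted cells are missing from them. The median over all genes tested was 0.14. Left out of this list were Zfp36 (0 and 0 sorted insertions), Zfp36l1 (1 and 1), Zfp36l2 (0 and 1) and Rc3h2 (1 and 0). The 4 hits were Tnrc6a, Tnrc6b and Tnrc6c, the GW182 proteins that bridge Argonaute to Cnot9 and the scaffold, and Eif4enif1, which binds the cap-binding protein eIF4E and represses translation. Tnrc6b had 102 and 99 sorted insertions, and its log2 odds ratio of 4.34 ± 0.19 (SE; adjusted p 4.74e-124 by Fisher's exact test) lay within the interval of Cnot9. Tnrc6a stood at 3.17 ± 0.31, Eif4enif1 at 2.31 ± 0.17 and Tnrc6c at 2.18 ± 0.13 (log2 odds ratio with SE), with adjusted p of 4.55e-18, 3.42e-30 and 4.88e-45 by Fisher's exact test. Of the 3 lists, 4, 2 and 7 genes were tested in the activator screen and 0 were hits. In the repressor screen 0, 2 and 3 were tested and 0 were hits, so that nothing can be said of the regulatory partners there.

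The 3 genes whose insertion levels were most like those of Cnot9 over the 12 libraries were Pan3, Trim13 and Ncoa5, at Euclidean distances of 3.39, 3.41 and 3.44 between log2 levels (per 10000 + 0.1) among 9731 genes with at least 20 insertions. Trim13 had 104 and 51 PTGR sorted insertions and Ncoa5 27 and 17, and as for Cnot9 the first replicate was the higher in both. Pan3, the nearest of the 3, had 11 and 11 and did not share this difference.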

How the data were processed

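Cassette insertion sites were read by inverse PCR with sequencing from 12 libraries of mES cells, 2 sorted and 2 unsorted for each of 3 screens. The authors trimmed reads with Trim Galore (0.6.0), aligned them to mm10 with Bowtie2, removed duplicates and poorly placed reads with samtools (1.9), and gave every insertion the closest exon downstream of it in protein-coding GENCODE transcripts, first exons left aside. They deposited 24 lists of positions with strand, gene, exon number and distance, and 3 tables of insertion counts per gene. The deposited tables also hold log2 odds ratios and p-values of the authors' own test, which were not used. Reads were not analysed here.

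Each position was counted once per library. This matters for the repressor unsorted lists, which repeat 100% of their positions, and for PTGR sorted replicate 2, which repeats 12.7%. The authors' summed counts equal those used here for 10 of the 10 subunit genes in the activator and repressor sorted cells, for 3 in the PTGR sorted cells and for 9 in the background. Counts of both sorted replicates were compared with those of the 6 unsorted libraries gene by gene with Fisher's exact test (one-sided), as in the study's methods, with Benjamini-Hochberg adjustment over all genes with at least 3 sorted insertions. No pseudocount was added, and SEs are from counting error. edgeR (4.0.16) and DESeq2 (1.42.0) were run on genes with at least 10 insertions over the 4 libraries of a screen in R 4.3.3. Both replicates of a screen were biological replicates per the methods of the study, although the repressor sorted replicates shared 18.8% and 27.5% of their positions, and p-values from 2 libraries a group rest on little information about their spread.

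Gene locations and acceptors are those of GENCODE vM21 on GRCm38 (mm10), and all 2222 insertions of the 10 genes met the first base of a vM21 exon once 1 base was added to the deposited distance. Exon numbers are as deposited. From the 3 lists, genes were named that were hits in any screen and, where a list had none, the gene with the most PTGR sorted insertions. The genes, lists and tests were chosen with earlier results of these data known.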

Additional observations from a re-analysis of the deposited data

Results flagged for a closer look

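Among the 6 unsorted libraries, PTGR unsorted replicate 1 stood apart at Cnot9 (1.33 insertions per 10000) and at Cnot3 (0.171 per 10000, from 4 insertions), and activator unsorted replicate 2 at Cnot6 (3.08 per 10000), by Dixon's test at its 95% level. Chance alone flags about 1 in 20 such groups. The sorting effect differed between the PTGR screen and the mean of the other screens for Cnot2 (adjusted p 2.59e-04) and Cnot1 (adjusted p 0.0288) in edgeR. Lower levels in sorted cells of the other screens add to both, for Cnot1 from 1 sorted insertion in each of them. The cause of these differences was not tested.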

How the results depend on the processing

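In the PTGR screen 3 subunit genes were hits, and 2 to 4 when each library was left out in turn: Cnot3 was lost without PTGR sorted replicate 1 and Cnot8 was gained without PTGR unsorted replicate 1. DESeq2 called 1, Cnot2. In the activator and repressor screens 0 were hits under every alternative run. Pairing by replicate number was checked through the correlation of deviations from group means, which was 0.21 in the PTGR, 0.048 in the activator and -0.00066 in the repressor screen. With the replicate block edgeR called the same 2 subunit genes in the PTGR screen as without it, Cnot2 (adjusted p 2.47e-22) and Cnot9 (adjusted p 6.76e-26). It called 42 genes in all against 29, and the block changed no call of a subunit gene. With the block, 4 libraries leave very little information about the spread between replicates, and Cnot9 held 80 and 26 sorted insertions. The 2 p-values are therefore no measure of that spread.

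Log2 odds ratios ranged over all alternatives of the Fisher test from 2.91 to 5.65 for Cnot9, 2.65 to 4.36 for Cnot2, 2.85 to 4.72 for Cnot3, 1.19 to 2.25 for Cnot8 and 0.60 to 1.39 for Cnot1. Values near 0 changed sign. Cnot6 in the PTGR screen was at 1.68 with a maximum distance of 50 kb, 0.0010 with every line counted and 0.038 without activator unsorted replicate 2 (-0.27 to 0.038 with each library left out). Cnot6 in the activator screen was at -0.19 against the activator background and -0.074 without positions of more than 1 screen. Cnot10 was at -0.13 against the PTGR background and -1.09 without PTGR sorted replicate 2 (-1.09 to 0.73 with each library left out). Cnot11 was at -0.071 with a maximum distance of 50 kb, -0.13 with positions within 10 bp merged, -0.13 without PTGR sorted replicate 2, -0.10 without PTGR unsorted replicate 1 (-0.13 to 0.27 with each library left out) and -0.15 against the other screens' background, an alternative chosen after seeing the data. The cause was not tested.

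Depth limits Cnot7, Cnot6l and Cnot3, which had 3, 12 and 7 background insertions. Cnot7 was not tested.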
